A study of Homo sapiens with 13 samples.

Results

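The genes described here are 9 human genes of the tuft-cell programme: the transcription factor gene POU2F3, its coactivator genes POU2AF2 and POU2AF3, the effector genes TRPM5, AVIL and CHAT, and the transcription factor genes GFI1B, ASCL2 and SOX9. They were taken by name from GENCODE release 44, and all 9 were found among 20033 protein-coding genes on chromosomes 1 to 22, X and Y. Chromatin accessibility around them was read from ATAC-seq, which uses the transposase Tn5 to cut and tag open DNA, in 2 established small cell lung cancer (SCLC) lines. H82 is a line of the NEUROD1 subtype (SCLC-N) and H146 is a neuroendocrine line of another subtype, and neither is of the POU2F3 subtype (SCLC-P). The labels give both lines as wild type. For H82 there were 3 untreated samples and 3 samples exposed for 14 days to 100 nM FHD-286, which inhibits SMARCA4 and SMARCA2, the ATPases of the SWI/SNF chromatin remodellers. For H146 there were 4 untreated samples and 3 exposed to the same dose for the same time. By the methods of the study, 3 of the H146 controls were sequenced apart from the fourth control and the treated cells.

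The processed data are a single atlas of accessible regions per line on hg38. A region is listed where a peak was called in at least 1 sample of the line, so untreated and treated cells cannot be told apart. There is 1 value per line at every gene, with no spread between replicates and no known depth, and nothing below was tested. Differences between the atlases are also differences between lines in DNA copies, depth and number of samples, which cannot be told apart from accessibility. A site open in few cells cannot be told from one open weakly in many, and an accessible gene need not be expressed.

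Tuft cells are rare chemosensory cells of epithelia, the airway among them. They sense luminal signals through a taste-like cascade that ends in the cation channel TRPM5, and release acetylcholine, eicosanoids and the cytokine IL-25. POU2F3 is a POU-domain factor that binds octamer DNA and is required for tuft cells to form. The coactivators POU2AF2 and POU2AF3 bind it and are needed for its targets in SCLC of the POU2F3 subtype.

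Before the members are described, 3 facts of the whole atlases bear on them. H82 had 206927 regions covering 5.41% of the genome and H146 had 174093 covering 4.49%, yet on chromosome 11, where 5 of the 9 members lie, H82 covered 5.3% and H146 covered 5.79%. NEUROD1 had a region within 1 kb of its transcription start site (TSS) in H82 alone, whereas the neuroendocrine genes INSM1, SYP and CHGA and the subtype genes YAP1 and POU2F3 had one in both lines. Region boundaries coincided to the base: 35829 region starts were at the same base in both atlases, against 178 at an offset of 1 bp, and 19180 regions had the same start and end. A start or end at the same base was found in 42.7% of the H82 regions that overlapped an H146 region. Its cause was not tested. The counts of TSS regions, the locus ratios of the members and the overlap of the lines are given below with and without such regions.

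A region lay within 1 kb of the TSS, taken as the 5′ end of the gene record, in both lines for 8 of the 9 members. The exception was POU2AF2, with none in either line. Over all protein-coding genes, 75.4% had such a region in both lines and 17.7% had none, while 5.1% had one in H82 alone and 1.86% in H146 alone. This makes 80.5% of all genes for H82 and 77.2% for H146. A region over the TSS base itself was less frequent. TRPM5, GFI1B, SOX9 and CHAT had one in both lines, POU2F3 and ASCL2 had one in H146 alone, and POU2AF2, POU2AF3 and AVIL had none, so that 4 members were covered at that base in H82 and 6 in H146. The corresponding shares of all genes were 72.2% in H82 and 69.6% in H146. Without the regions that share a boundary between the atlases, 4 members in H82 and 3 in H146 kept a region within 1 kb. This setting leaves out 25.3% of all H82 and 30.0% of all H146 regions. The share of all genes was not computed for it, so these counts have no background.

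**Figure D1:**
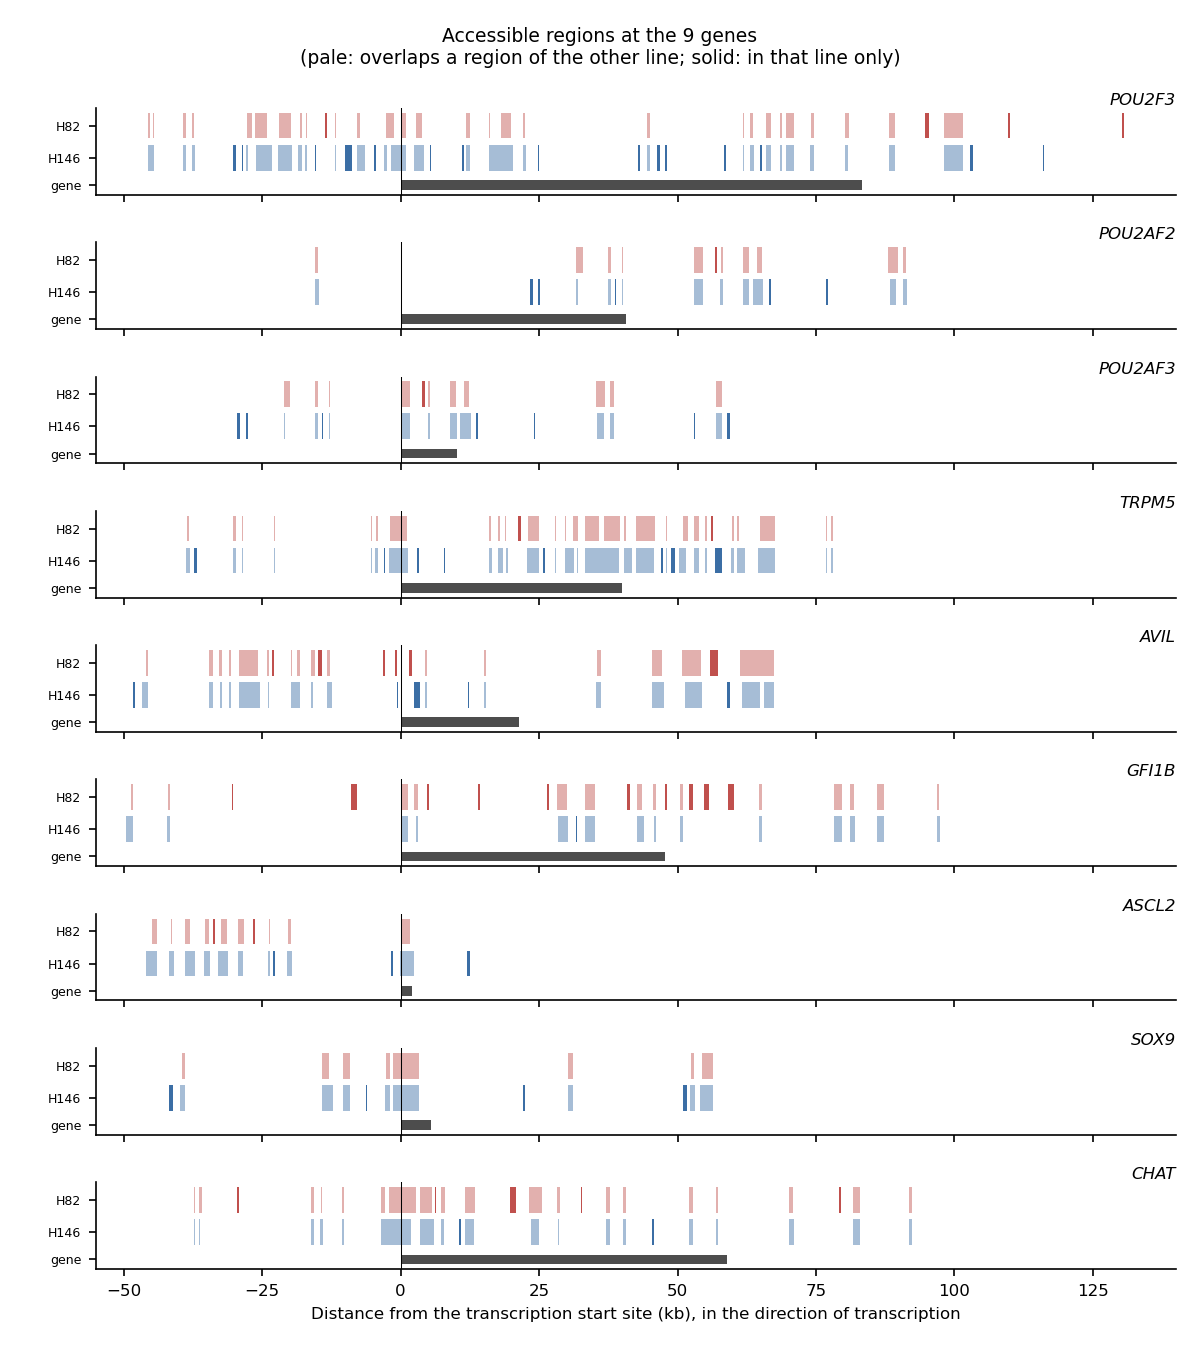
Accessible regions of H82 (upper row of each panel) and H146 (lower row) at the 9 genes, by distance from the TSS in kb along the direction of transcription. Pale bars overlap a region of the other line, solid bars are in 1 line only, and the dark bar is the gene. POU2AF2 has no region near its TSS in either line. At POU2F3, 15 of 41 H146 bars (36.6%) and 4 of 32 H82 bars (12.5%) are solid, beside 29.5% and 40.7% of all regions.

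POU2F3 (chr11:120236640-120319945, plus strand) had 32 regions in H82 and 41 in H146 over its locus, meaning the gene and 50 kb to either side. They covered 14.0% of the locus in H82 and 20.4% in H146, a log2 ratio of H82 over H146 of -0.55. At the TSS, the H82 region was 641 bp wide and began 335 bp inside the gene. The H146 region was 2762 bp wide and reached from 1786 bp upstream to 975 bp downstream. Both ended at the same base, so the values of this window have no counterpart without regions of common boundary. The H146 region covered 98.8% of the 2 kb around the TSS and the H82 region 32.0%. That difference of over 2-fold was singled out after its value was seen. It depends on the window, because H82 had a further region of 1452 bp upstream, outside these 2 kb. That region overlapped the same H146 region. Peaks within 500 bp had been joined, and whether the H146 region holds such filled gaps cannot be seen from its edges. Among genes with a TSS region in both lines, 1.52% had at least 2-fold more of this window covered in H146 and 3.53% in H82.

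The difference at POU2F3 extended along the gene and upstream of it, but not downstream. The 50 kb upstream were covered to 19.9% in H82 and 32.0% in H146, and the gene body to 12.0% and 19.4%. The upstream flank holds the gene OAF, so its accessibility cannot be assigned to POU2F3. The widest upstream region was in an OAF intron in H82 (2307 bp) and at the OAF TSS in H146 (3013 bp). The 50 kb downstream were covered to 11.4% and 10.5%. Regions in H146 alone numbered 15, of which 8 were in the gene body, where H82 had 0 regions of its own. As shares of the locus, regions in 1 line only were 36.6% of the 41 in H146 and 12.5% of the 32 in H82. Over the whole atlases these shares were 29.5% and 40.7%. Wider regions added to the difference. From 15946 to 20299 bp into the gene, still in the gene body, H146 had a single region of 4354 bp where H82 had separate regions of 210 and 1772 bp. A region of 3381 bp starting 98167 bp past the TSS, downstream of the gene and at the TSS of ARHGEF12, had the same start and end in both lines. In all, 7 regions of this locus did so.

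POU2AF2 (chr11:111245725-111286401, plus strand) was the least covered member. Its locus was covered to 5.93% in H82 (11 regions) and 6.93% in H146 (15 regions). The region nearest to the TSS lay upstream, ending 14865 bp from it in H82 and 14683 bp in H146. The 4 transcript starts of the gene all lacked a region within 1 kb in both lines. Among all protein-coding genes, 5.81% had no region within 10 kb of the TSS in either line. The gene body held 3 H82 regions and 6 H146 regions, and 3 of the latter were in H146 alone, all intronic. The DNA within 1 kb of the TSS had a GC content of 33.1% and a ratio of observed to expected CpG of 0.127.

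POU2AF3 (chr11:111298546-111308735, plus strand) neighbours POU2AF2, and their loci overlap, so they share regions. Its locus was covered to 8.53% in H82 (11 regions) and 10.5% in H146 (17 regions). The TSS region was 1464 bp wide in H82 and 1548 bp in H146, and in both lines it ended 1704 bp inside the gene. It began 241 bp past the TSS in H82 and 157 bp past it in H146. The gene has 5 distinct transcript starts, of which the 3 most downstream lie inside the region in both lines and the other two just outside it. The antisense long non-coding gene COLCA1 overlaps this region, and ATAC-seq has no strand.

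The sequences upstream of the POU2AF3 starts are shown for one outside the regions and one inside them. RefSeq promoters (GRCh38.p14, 250 bases before each start) were matched for 4 members, POU2AF3, AVIL, GFI1B and CHAT, and not for POU2F3, POU2AF2, TRPM5, ASCL2 and SOX9. The first POU2AF3 sequence below is chr11:111298296-111298545, the 250 bases before the gene's TSS. The second is chr11:111299059-111299250, the 192 bases outside annotated exons before the RefSeq start 763 bp further on. Both are plus strand, with CpG in capitals.
POU2AF3 at the gene TSS: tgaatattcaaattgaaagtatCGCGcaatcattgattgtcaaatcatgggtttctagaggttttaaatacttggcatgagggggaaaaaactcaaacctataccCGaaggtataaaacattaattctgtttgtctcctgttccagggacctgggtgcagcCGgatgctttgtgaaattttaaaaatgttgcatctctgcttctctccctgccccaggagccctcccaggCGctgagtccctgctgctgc
POU2AF3 at the inner start: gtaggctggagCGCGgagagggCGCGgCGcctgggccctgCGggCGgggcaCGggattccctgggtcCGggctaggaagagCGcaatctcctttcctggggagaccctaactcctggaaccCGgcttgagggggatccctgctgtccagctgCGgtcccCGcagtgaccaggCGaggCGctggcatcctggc
The first sequence held 5 CpG at a GC content of 44.8%, and 0 of its bases were in a region of either line. The second held 15 CpG at 70.8%, and all 192 bases were in a region of both lines. A stretch between them that crosses the region edge, chr11:111298674-111298839, held 17 CpG in 166 bases at 71.7%, of which 53 bases were in the H82 region and 137 in the H146 region.

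TRPM5 (chr11:2404515-2444514, minus strand), the calcium-activated cation channel of taste and tuft cells, had the most covered locus in H146. It was covered to 18.2% in H82 (29 regions) and 25.0% in H146 (34 regions), a log2 ratio of -0.46. At the TSS both lines had a wide region, 3115 bp in H82 and 3361 bp in H146, which also covers the TSS of KCNQ1, a potassium channel gene read in the opposite direction. Accessibility of the shared promoter cannot be assigned to either gene. TRPM5 has 2 further transcript starts, 21472 and 21502 bp inside the gene. There the order of the lines turned: H82 had a region of 479 bp over both starts, and in H146 the nearest region was 1339 and 1309 bp away. This intronic region was 1 of 2 in the TRPM5 locus found in H82 alone, against 8 in H146 alone. As shares these were 6.9% of its H82 and 23.5% of its H146 regions, both below the 40.7% and 29.5% of the whole atlases.

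AVIL (chr12:57797376-57818734, minus strand) encodes advillin, an actin-binding protein that marks tuft cells. Its locus was covered equally, with 24266 bases in 22 regions in H82 and 24265 bases in 21 regions in H146, or 20.0% in both. Few of these bases lay in the gene body, 1179 in H82 and 2216 in H146. The widest region lay at the starts of CDK4 and MARCHF9 in H82 (6186 bp) and at that of CTDSP2 in H146 (3773 bp). The equal totals were made of partly different bases: 18620 were in both lines, 5646 in H82 alone and 5645 in H146 alone. AVIL also counts as having a TSS region in both lines, but these were different regions that did not overlap. The H82 region was 297 bp wide and lay 1019 to 723 bp upstream of the TSS, and the H146 region was 266 bp wide and lay 661 to 396 bp upstream. Inside the gene, an intronic region of 1164 bp from 2402 to 3565 bp past the TSS was in H146 alone. It covers 1 of the 10 transcript starts, and beside it H82 had an intronic region of its own, 383 bp wide, from 1588 to 1970 bp. The gene body was covered to 5.52% in H82 and 10.4% in H146.

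The 250 bases before the AVIL start, chr12:57818735-57818984 on the minus strand, are shown because they fall between the H146 region and the gene. They held 3 CpG (capitals) at a GC content of 42.4%, and 0 bases in a region of either line.
AVIL: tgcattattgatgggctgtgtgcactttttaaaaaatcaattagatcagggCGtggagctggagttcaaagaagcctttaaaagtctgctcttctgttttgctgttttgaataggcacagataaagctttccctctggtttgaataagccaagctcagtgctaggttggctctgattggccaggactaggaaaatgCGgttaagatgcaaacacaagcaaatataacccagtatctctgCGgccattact

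CHAT (chr10:49609095-49667942, plus strand) encodes choline acetyltransferase, which makes the acetylcholine of tuft cells and of cholinergic neurons. The gene holds SLC18A3, which encodes the vesicular acetylcholine transporter, in its first intron, and the TSS regions cover both starts. The TSS region was 4864 bp wide in H82 and 5485 bp in H146, and reached 2161 bp upstream in H82 and 3581 bp in H146. The locus was covered to 13.7% in H82 (24 regions) and 12.0% in H146 (20 regions), a log2 ratio of 0.19. The gene body differed more than the flanks, at 23.8% in H82 and 18.9% in H146. An intronic region of 1168 bp, from 19724 to 20891 bp past the TSS, was in H82 alone. The 250 bases before the start, chr10:49608845-49609094 on the plus strand, lay wholly inside the regions of both lines and serve as the contrast to AVIL. They held 10 CpG at a GC content of 57.6%.
CHAT: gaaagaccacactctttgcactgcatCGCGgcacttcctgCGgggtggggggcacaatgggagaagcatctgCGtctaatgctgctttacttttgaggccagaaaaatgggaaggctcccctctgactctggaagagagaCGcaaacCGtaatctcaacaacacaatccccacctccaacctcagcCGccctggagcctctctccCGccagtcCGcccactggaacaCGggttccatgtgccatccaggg

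GFI1B (chr9:132944000-132991687, plus strand) encodes a zinc-finger repressor of blood cells that is also expressed in tuft cells. It was the member with the largest excess in H82. Its locus was covered to 12.7% in H82 (24 regions) and 9.56% in H146 (15 regions), a log2 ratio of 0.41. Of the 24 H82 regions 10 were in H82 alone, against 1 of the 15 H146 regions. As shares these were 41.7% and 6.67%, beside 40.7% of all H82 regions and 29.5% of all H146 regions that were in 1 line only. In the gene body, 4 intronic regions of 254, 453, 357 and 571 bp were in H82 alone, and downstream of the gene a further 4, the widest of 1066 bp. The TSS region began at the same base in both lines and was 1261 bp wide in H82 and 1353 bp in H146. Its centre lay in annotated 5′ UTR of both GFI1B and the neighbouring gene TSC1. The next region, starting 2361 bp past the TSS in H82 and 2770 bp past it in H146, lay within 1 kb of the TSC1 TSS. Accessibility there cannot be assigned to either gene. A second cluster of 3 transcript starts, 34651 to 34711 bp inside the gene, lay in a region of 1783 bp with the same start and end in both lines. Chromosome 9 as a whole was covered more in H82, at 5.47% against 4.09%, and relative to it the GFI1B locus had a log2 ratio of -0.01.

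ASCL2 (chr11:2268498-2270588, minus strand) encodes a basic helix-loop-helix factor of intestinal stem cells and of SCLC of the POU2F3 subtype. It had the lowest log2 ratio of the members, -0.64, with 8.37% of its locus covered in H82 (11 regions) and 13.0% in H146 (12 regions). The H146 region of 2495 bp spanned the whole gene, and the H82 region of 1600 bp covered 76.5% of it, starting 105 bp past the TSS. The other 10 H82 regions all lay upstream, most of them inside C11orf21 or TSPAN32. The 50 kb upstream held 6943 covered bases in H82 and 10323 in H146. Much of the locus difference thus lay there and cannot be assigned to ASCL2. Downstream of the gene, H82 had 0 regions and H146 had 1 of its own, 501 bp wide.

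SOX9 (chr17:72121020-72126416, plus strand) encodes an HMG-box factor of progenitor cells in many epithelia. Its locus was covered to 10.3% in H82 (8 regions) and 14.2% in H146 (12 regions), a log2 ratio of -0.46. The TSS region began 1313 bp upstream in both lines and was 4591 bp wide in H82 and 4665 bp in H146. Every H82 base in the locus was also in an H146 region: 10863 bases were in both lines, 0 in H82 alone and 4061 in H146 alone. This pattern was singled out after it was seen, and 3.05% of the genes with an H82 region in the locus had it. The 4 regions in H146 alone were all more than 6 kb from the TSS and lay in introns of the antisense gene SOX9-AS1. Chromosome 17 was covered more in H82, at 10.9% against 8.53%.

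**Figure D2:**
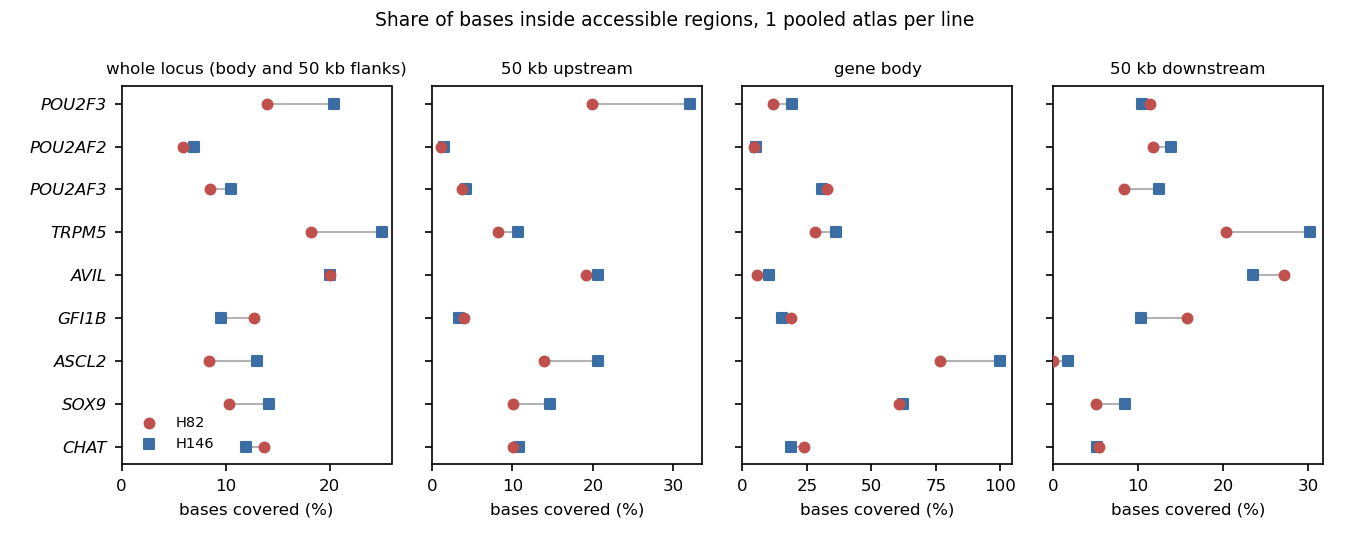
Share of bases inside regions (percent) for H82 (circles) and H146 (squares) over the whole locus, the 50 kb upstream, the gene body and the 50 kb downstream of each gene, 1 value per line with no error. The locus of POU2F3 is at 14.0% in H82 and 20.4% in H146, and the locus of GFI1B at 12.7% and 9.56%.

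Taking the 9 loci by the same measure, 6 were covered more in H146 (POU2F3, POU2AF2, POU2AF3, TRPM5, ASCL2 and SOX9) and 3 in H82 (GFI1B, CHAT and, by 1 base, AVIL). Over all protein-coding genes, 35.4% were covered more in H146, and on chromosome 11, which holds 5 of these 6, 61.3%. With all regions counted, none of the 9 reached the 2-fold difference that was the size to be called, which 15.1% of all genes reached towards H82 and 1.43% towards H146. The log2 ratio ran from -0.64 at ASCL2 to 0.41 at GFI1B, with a median of -0.29, beside a median of 0.19 over all genes (quartiles -0.14 and 0.67) and of -0.11 over chromosome 11. All loci but that of POU2AF2 were covered above the median of all genes in both lines, which was 7.52% in H82 and 6.16% in H146, and POU2AF2 was above it in H146 only. With each share divided by that of its chromosome, 1 member was covered more in H82, CHAT. The share of all genes was not computed for this setting.

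Leaving out the regions that start or end at the same base in both atlases widened this range, and 2 members then passed 2-fold. CHAT had a log2 ratio of 1.31, towards H82, and SOX9 one of -1.08, towards H146. At CHAT this setting left out the H146 TSS region of 5485 bp but kept the overlapping H82 TSS region of 4864 bp. The lines were thus not treated alike there, and the ratio cannot be read as a difference in accessibility. GFI1B was at 0.84, AVIL at 0.07, POU2F3 at -0.27, TRPM5 at -0.42, ASCL2 at -0.6, POU2AF2 at -0.62 and POU2AF3 at -0.84, with a median of -0.42 over the 9. The share of all genes past 2-fold was not computed for this setting.

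**Figure D3:**
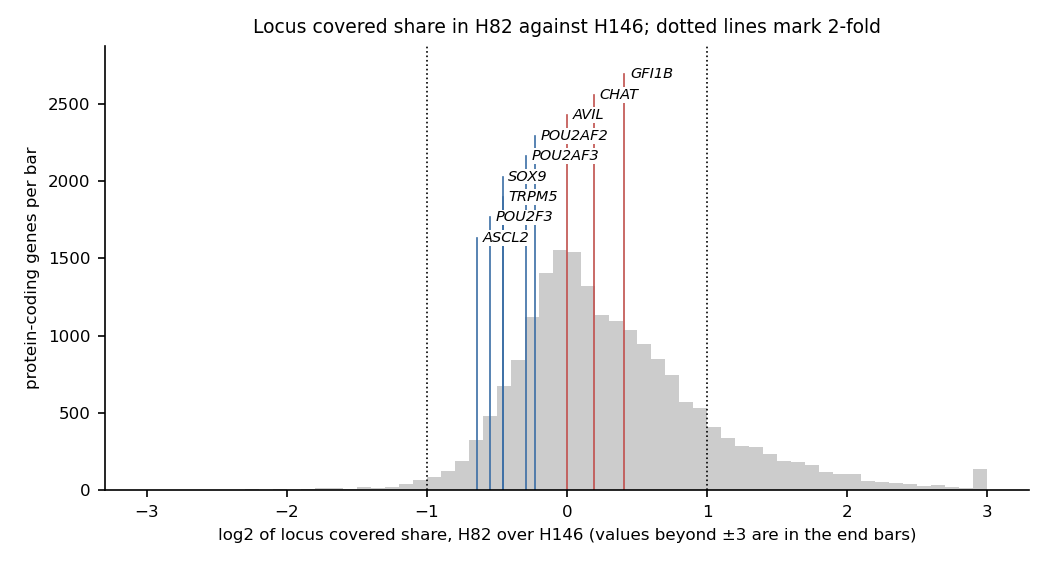
Number of protein-coding genes (grey bars) by log2 ratio of locus covered share, H82 over H146, with the 9 genes as labelled lines whose height has no meaning. All 9 lie between the dotted 2-fold marks, from -0.64 to 0.41.

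The regions of the loci were largely common to the lines. Counting each region once, 162 H82 regions and 173 H146 regions overlapped the loci. Of these, 132 H82 regions (81.5%, 95% exact binomial interval 74.6 to 87.1%, counting error only) and 128 H146 regions (74.0%, 66.8 to 80.4%) overlapped a region of the other line by at least 1 bp. Over the whole atlases, which are not limited to gene loci, the shares were 59.3% and 70.5%. The interval of the H146 share thus includes that of the whole H146 atlas. Per locus, the ratio of bases in both lines to bases in either had a median of 0.528 over all genes. The quartiles were 0.406 and 0.638. The members ran from 0.53 at ASCL2 to 0.728 at SOX9, and only SOX9 and CHAT (0.701) were above the upper quartile. A start or end at the same base was found in 52.3% of the overlapping H82 regions of the loci. Without such regions the overlapping share fell to 64.5% of H82 and 57.1% of H146 regions, a fall that leaving out overlapping regions must bring. The shares over the whole atlases were not computed for this setting. In bases, 120.0 kb lay in both lines, 25.2 kb in H82 alone and 50.4 kb in H146 alone. Regions in 1 line were narrower, with a median width of 380 bp (H82) or 348 bp (H146), against 636 and 837 bp for those that overlapped. The centre was in an intron or between genes for 27 of the 30 H82-only and 38 of the 45 H146-only regions, and for 105 of the 132 and 103 of the 128 that overlapped. Among the regions in 1 line, within 1 kb of a member TSS there was 1 in each line, both at AVIL.

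**Figure D4:**
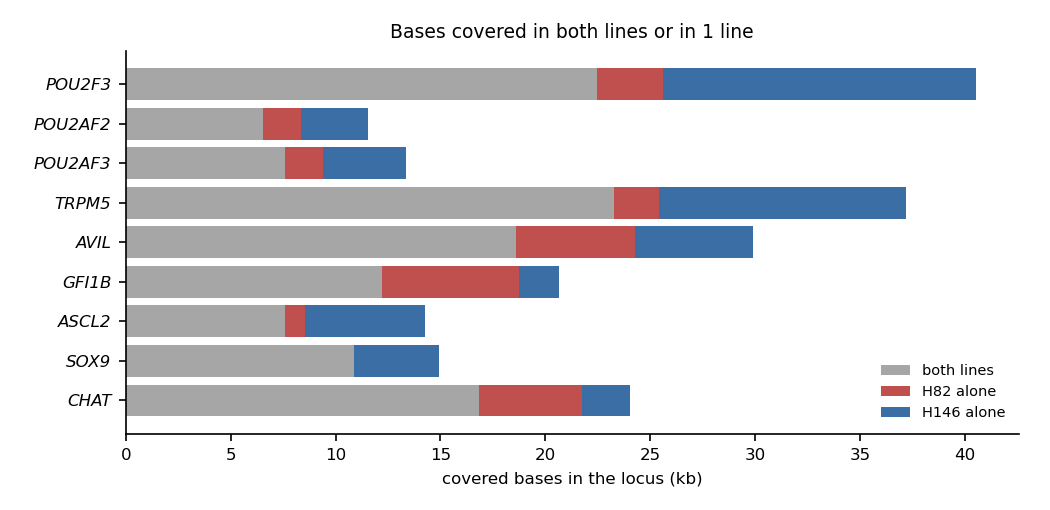
Covered bases of each locus in kb, split into those in both lines (grey), in H82 alone (red) and in H146 alone (blue); the loci of POU2AF2 and POU2AF3 overlap. SOX9 has 0 bases in H82 alone, and GFI1B has 6539 bases in H82 alone against 1900 in H146 alone.

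The octamer, the word bound by POU2F3 and its relatives POU2F1 and POU2F2, was searched as ATGCAAAT on both strands (ATTTGCAT on the other) in the central 300 bp of each region. A match is a string of letters and not a binding site. It was found in 4 of the 162 H82 regions (2.47%) and 5 of the 173 H146 regions (2.89%), against 1.5% and 1.68% of all regions of those atlases. The octamer read backwards, TAAACGTA, which differs from it in holding a CpG, was in 0 regions of the loci and in 0.104% and 0.155% of all. None of the matches was in a region of 1 line only. The 300-base promoters of the 4 matched members, 9 in all, held 0 octamers, and 1.77% of 35116 RefSeq promoters held one.

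There were 5 such places. The first was in POU2F3 itself, in an intron 3400 bp past the TSS (chr11:120240040-120240047), inside a region of 1155 bp in H82 and 1813 bp in H146, and just upstream of a second transcript start at 3500 bp. The other 4 are shown with 16 bases to either side, on the strand that reads ATGCAAAT (capitals), since they are the only matches in these windows away from a transcript start.
POU2AF3 intron, chr11:111303632-111303671, minus strand: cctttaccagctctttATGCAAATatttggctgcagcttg
POU2AF3 downstream, chr11:111336738-111336777, minus strand: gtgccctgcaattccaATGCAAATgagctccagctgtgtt
TRPM5 intron, chr11:2426381-2426420, minus strand: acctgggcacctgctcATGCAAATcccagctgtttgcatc
GFI1B downstream, chr9:132994830-132994869, minus strand: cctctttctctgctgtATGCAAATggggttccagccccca
The POU2AF3 intron site was in a region whose width was 319 bp for H82 and 460 bp for H146. The downstream site, 38208 bp past the POU2AF3 TSS, was in regions of 610 and 704 bp that started at the same base. It is intergenic, between POU2AF3 and the neighbouring gene POU2AF1, and cannot be assigned to either. The TRPM5 site, 18110 bp into the gene, was inside the H146 region of 792 bp and outside the H82 region of 270 bp that shares an edge with it. The GFI1B site, 50846 bp past its TSS, lay in a region with the same start and end in both lines.

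Base composition around the starts differed widely among the members. The ratio of observed to expected CpG within 1 kb of the TSS was 0.923 at ASCL2, 0.826 at SOX9, 0.687 at TRPM5, 0.636 at GFI1B, 0.595 at POU2AF3, 0.505 at CHAT, 0.17 at AVIL, 0.137 at POU2F3 and 0.127 at POU2AF2. The median was 0.675 over genes with a TSS region in both lines and 0.222 over genes with none in either. The 4 members at or above 0.6 all had a TSS region in both lines, as 97.9% of such genes had in H82 and 96.2% in H146. Of the 5 members below 0.6, 4 had one in both lines, beside 61.5% and 56.6% of such genes. POU2F3 and AVIL thus had low-CpG starts with a region nearby, and POU2AF2 a low-CpG start without one.

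The relatives of these genes can be set beside them. POU2AF1, the B-cell coactivator next to POU2AF3, had a TSS region in both lines and a log2 ratio of -0.44. Its locus overlaps those of POU2AF3 and POU2AF2, so this ratio rests partly on the same regions. POU2F1, the widely expressed octamer factor, had a TSS region in both lines and a ratio of 0.43, and POU2F2 had a TSS region in H146 only and a ratio of 0.1. GFI1, the paralogue of GFI1B, had a TSS region in both lines and a ratio of 0.62. NEUROD1, the subtype factor of H82, had a locus covered to 21.5% in H82 and 6.33% in H146, a ratio of 1.77. Relative to their chromosomes the ratios were -0.31 at POU2AF1, -0.19 at POU2F1, -0.18 at POU2F2, 0.01 at GFI1 and 1.4 at NEUROD1.

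Of 36 further genes known from tuft cells, 27 had a TSS region in both lines, 1 in H82 only and 8 in neither. The share with a region in both was 75.0%, near the 75.4% of all genes. The 8 without a region were GNAT3, the taste G protein subunit, RGS13, ALOX5AP and HPGDS of eicosanoid synthesis, BMX, FYB1, EHF and IRAG2. The single difference at a TSS was IL25, the tuft-cell cytokine, whose start lay in an H82 region of 73496 bp and in no H146 region within 1 kb. The locus was covered more in H82 at 26 and more in H146 at 10 of the 36, with a median log2 ratio of 0.15 beside 0.19 over all genes. Among the 36, SLC18A3 lies inside CHAT, so its locus largely repeats that of CHAT.

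A 2-fold difference was reached by 8 of the 36 (22.2%), all towards H82, beside the 15.1% of all genes. They were PLCB2, the phospholipase of the taste cascade (log2 ratio 1.73), the taste receptor genes TAS1R1 (1.96) and TAS1R3 (1.38), IL25 (3.26), the kinase gene MATK (2.02), IRAG2 (2.01), the choline transporter gene SLC5A7 (1.02) and HPGDS (4.8). At HPGDS, H146 had a single region of 265 bp and H82 had 11 regions. At SLC5A7 the difference rested on 3 H82 regions and 1 H146 region. The loci of IL25 and TAS1R3 were covered to 86.2% and 84.4% in H82, with fewer and wider regions than in H146. By number of regions these last 2 genes turned towards H146, with log2 ratios of -0.78 and -0.58, and PLCB2 fell under 2-fold, at 0.83. Relative to the chromosome, 5 of the 36 were past 2-fold, and PLCB2 (0.8), TAS1R3 (0.76) and SLC5A7 (0.65) were not. SLC5A7 was also under 2-fold with flanks of 10 kb (0.62) or 100 kb (0.36) and over regions of at least 500 bp (0.24). Without regions of common boundary, 9 genes were past 2-fold towards H82 and 1, KIT, towards H146. The 9 include SLC18A3, whose TSS region is that of CHAT. The shares of all genes past 2-fold were not computed for these alternatives, so these counts have no background.

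**Figure D5:**
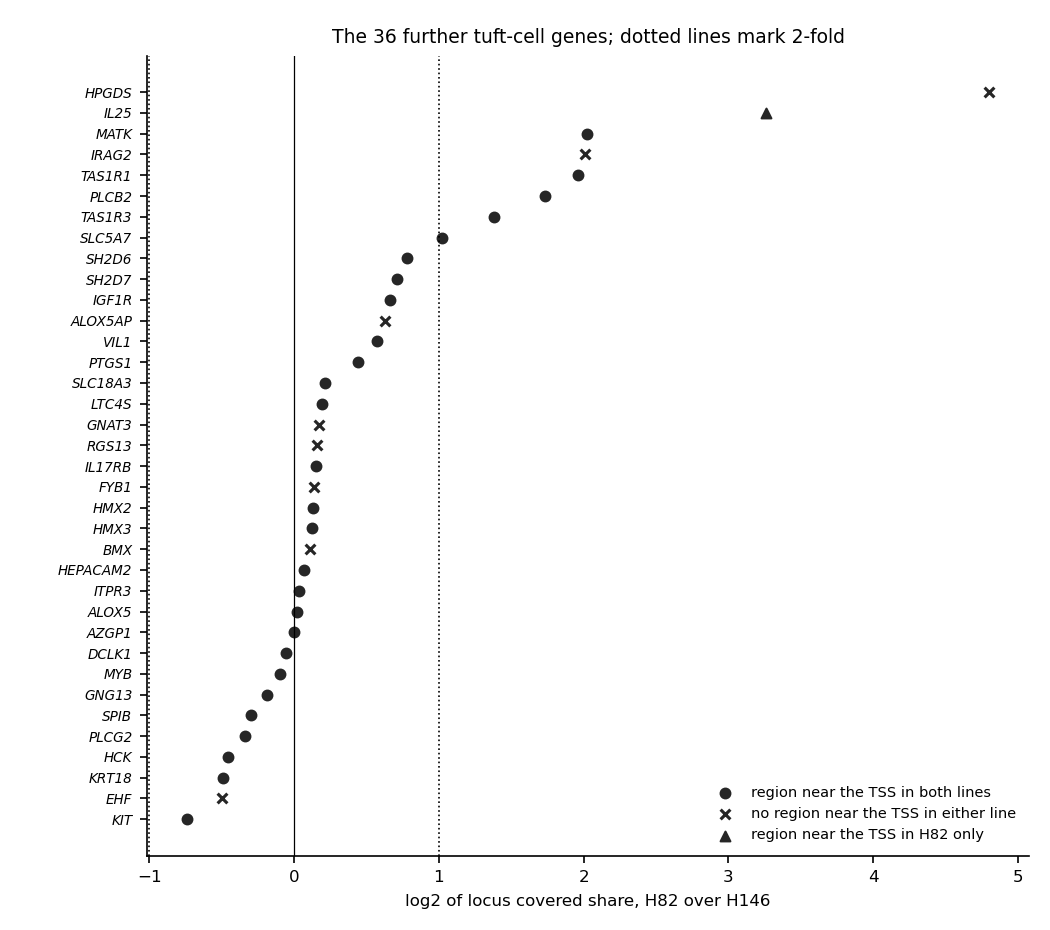
Log2 ratio of locus covered share, H82 over H146, for 36 further tuft-cell genes, with the marker giving whether a region lay within 1 kb of the TSS. Past the dotted 2-fold mark lie 8 genes towards H82 and 0 towards H146; the lowest, KIT, is at -0.74.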

How the data were processed

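ATAC-seq libraries of H82 and H146 were processed by the authors, who trimmed reads with Trim Galore 0.4.4, aligned them to hg38 with Bowtie2 2.3.4, called peaks per sample with MACS2, removed blacklisted regions and joined peaks within 500 bp into 1 atlas per line. The deposited values are the start and end of each region, with no count, signal or sample. Whether Tn5 cut positions were shifted is not given in the sources used here. The authors' DESeq2 comparison of FHD-286 with untreated cells was not analysed here, and 0 columns of values per sample were left aside.

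Regions were made 1-based and compared with GENCODE release 44 on hg38; 0 regions ended past a chromosome end. Covered shares, overlaps of at least 1 bp and word matches were computed with Python 3.11.15, numpy 2.4.6 and pysam 0.24.0. Overlap counts were the same as those of bedtools 2.31.1, and the interval functions were tested on simulated data. A 2-fold difference in covered share was the size called. Promoter sequences came from RefSeq (GRCh38.p14), and other sequences from hg38. No test was run. The 9 genes and the other lists were chosen with earlier results of these data known. All 9, their relatives and the subtype factors, of which 1 is not reported here, were named in any case, and genes of the further list where the lines differed at the TSS or by 2-fold in covered share; those without a region in either line, and KIT, were added after their values were seen. Alternatives were other windows and flanks, regions of at least 500 bp, counts of regions, other rules of overlap, exclusion of bases near other starts and scaling by chromosome.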

Additional observations from a re-analysis of the deposited data

How the results depend on the processing

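No paired analysis was possible because each line has 1 pooled atlas. The number of members with a TSS region was 7 to 8 in each line under regions of at least 500 bp, windows of 5 and 10 kb and the starts of all transcripts. Without regions that start or end at the same base in both atlases, an alternative chosen after seeing the data, it was 4 in H82 and 3 in H146, since this alternative removes the TSS regions of POU2F3, POU2AF3, GFI1B and SOX9 in both lines and that of CHAT in H146. The share of all genes with a TSS region was not computed for this alternative. The number of members covered more in H82, 3 as reported, was 1 with flanks of 100 kb and 1 relative to the chromosome, and 2 to 3 otherwise. POU2F3, POU2AF2, POU2AF3, TRPM5, ASCL2 and SOX9 were covered more in H146 under all 7 alternatives each. GFI1B (-0.01 to 0.84) and CHAT (-0.05 to 1.31) kept their direction in 6 of 7, and SOX9 ran from -1.08 to -0.09. CHAT and SOX9 passed 2-fold only without regions of common boundary, and no other member did under any of the 7 alternatives. At CHAT that setting left out the TSS region in H146 but not the overlapping one in H82. The log2 ratio at AVIL, 0.0 as reported, ran from -0.52 to 0.07. Overlap of at least 50% of both regions put the shared regions of the loci at 61.1% of H82 and 57.2% of H146, and leaving out regions with a common boundary put them at 64.5% and 57.1%. For these settings the shares over the whole atlases were not computed. Over whole regions the octamer was in 5.56% of the H82 and 6.36% of the H146 regions of the loci, beside 3.58% and 4.09% of all regions. In the central 300 bp of regions over 1 kb from any protein-coding TSS it was in 2.84% and 3.29%. The shares of all such regions of the atlases were 1.57% and 1.77%. The exact binomial intervals of the reported shares were 0.677 to 6.2% and 0.945 to 6.62%. By number of regions, the log2 ratio reversed at TAS1R3 (-0.58) and IL25 (-0.78). Depth per library was unknown, so a missing region may be a site not detected.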

Other observations

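Boundaries common to both atlases were spread unevenly over the genome. Regions with the same start and end made up 9.27% of all H82 regions. Of the H146 regions they made up 27.2% on chromosome 6, 19.0% on chromosome 18 and 3.81% on chromosome 22. On chromosome 11, which holds POU2F3, POU2AF2, POU2AF3, TRPM5 and ASCL2, the share of H146 regions was 10.9%, near that of the whole atlas. In the 9 loci, 21 of 173 H146 regions had the same start and end as an H82 region, of which 7 were in the POU2F3 locus, 6 in that of TRPM5 and 0 in those of ASCL2 and SOX9. At an offset of 5 bp, 224 starts and 543 ends matched between the atlases, and at no offset 35829 and 35862.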
